A study of Mus musculus with 6 samples.

Results

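Claudins are the transmembrane proteins that form the strands of the tight junction, the belt that closes the space between neighbouring epithelial or endothelial cells. Each cell type mixes several of them. Some claudins, called sealing or barrier claudins, close the space to ions and solutes, and others, called pore-forming claudins, line narrow channels through which small cations and water pass. In the colon the sealing claudins make the surface epithelium tight, and a loss of sealing with a gain of Cldn2 is a well known feature of inflamed bowel. In blood vessels the main claudin is Cldn5.

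Expression of 10 claudin genes (Cldn1, Cldn2, Cldn3, Cldn4, Cldn5, Cldn7, Cldn8, Cldn12, Cldn15 and Cldn23) was examined in mouse colon tissue. They were chosen by name as sealing, pore-forming and endothelial claudins or as other claudins of gut epithelium, and all 10 were present among the 18477 genes of the deposited table. The study sequenced colon RNA of male C57BL/6 mice aged 6 to 8 weeks. Colitis was induced in both groups with 2% (w/v) dextran sulfate sodium (DSS), a polymer that injures the colon epithelium, in the drinking water from day 8 to day 14. The DSS group (n = 3) was gavaged with PBS every day for 14 days, and the DSS+BV group (n = 3) was gavaged with the gut bacterium Bacteroides vulgatus in PBS. The comparison asks how the bacterium alters gene expression in the inflamed colon. Each library came from 1 mouse. Colon libraries from mice without DSS were not analysed here, so each comparison is of 2 colitis groups, and the stretch of colon taken was not given in the sources used here.

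The 6 libraries held between 15293300 and 17254300 expected counts. Levels are given as CPM, the counts scaled to a common library size with TMM factors, and values of a group are listed in the order of its replicates 1, 2 and 3. The test was the quasi-likelihood test of edgeR with Benjamini-Hochberg adjustment over the 14579 genes that passed a filter on low counts, and all 10 claudins passed it. A call needed an adjusted p below 0.05 together with a log2 fold change beyond 1 in either direction, and every fold change is of DSS+BV against DSS. Over all genes tested the median log2 fold change was -0.01. Libraries of different groups could be more alike than libraries of the same group. DSS 1 correlated with DSS+BV 1 at r = 0.967 and with DSS 2 at r = 0.936, across genes. The libraries also differed in genes that mark position along the gut, such as Hoxd13, a marker of the distal colon. In the DSS mice it measured 98.8, 1.06 and 42.9 CPM, against 61.9, 35.2 and 0.063 CPM in the DSS+BV mice. By Hoxd13, DSS 2 and DSS+BV 3 stood apart, near 0. The list of 6 distal colon Hox genes was not uniform, though. Hoxa13 was highest in DSS 2, at 21.0 CPM, and lowest in DSS+BV 3, at 0.19 CPM, whereas Hoxd10 was lowest in DSS 2, at 0.12 CPM, and at 8.41 CPM in DSS+BV 3, against 7.12 and 8.09 CPM in the other DSS+BV libraries. Hoxd11 was like Hoxd10, with 0.25 CPM for DSS 2 but 5.31 CPM for DSS+BV 3. The fold changes of Cldn2, Cldn15 and Cldn8 are also given without these libraries. In bulk tissue, fewer cells of a type and less RNA per cell cannot be told apart.

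The genomic starts of Cldn2 and Cldn15 are shown first because they are the pore-forming pair. Their log2 CPM correlated at r = 0.88 over the 6 libraries. Both windows are the 250 bases before the RefSeq start on GRCm38.p6, written 5′ to 3′ on the gene's strand. Capitals mark a match to the TATA box (TATAAA), the only one of 5 searched motifs present in either window. The Cldn2 window is chrX:139800558-139800807 on the plus strand, and the Cldn15 window is chr5:136967619-136967868 on the plus strand.
Cldn2: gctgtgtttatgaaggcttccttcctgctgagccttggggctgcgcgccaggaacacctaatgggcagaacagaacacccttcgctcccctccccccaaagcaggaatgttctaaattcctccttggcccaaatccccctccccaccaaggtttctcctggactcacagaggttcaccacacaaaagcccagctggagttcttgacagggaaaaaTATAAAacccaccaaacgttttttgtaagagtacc
Cldn15: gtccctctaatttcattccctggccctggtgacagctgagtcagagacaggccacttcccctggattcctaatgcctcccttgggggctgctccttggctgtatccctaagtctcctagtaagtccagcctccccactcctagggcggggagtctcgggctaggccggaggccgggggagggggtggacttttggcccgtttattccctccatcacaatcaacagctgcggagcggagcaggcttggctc

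The TATA box of Cldn2 began 35 bases before the start. Of 32536 mouse promoter windows of the same length, 12.3% held TATAAA on either strand. The other motifs searched on both strands were TTTATNG, bound by CDX factors and present in 9.74% of promoters, GTTAAT, a partial site of HNF1 (6.47%), CAAAGTCCA, bound by HNF4 (0.387%), and CCGGAAG, bound by ETS factors (6.95%). None of these motifs overlapped another in the windows matched. Promoter sequences were matched for 8 of the 10 genes, leaving Cldn8 and Cldn23. Among the others, the Cldn1 window held GTTAAT at 241 bases before the start, the windows of Cldn7 and Cldn12 held CCGGAAG (in Cldn12 a single site covered by 3 overlapping windows), and those of Cldn3, Cldn4 and Cldn5 held none of the letters searched. A match describes letters in a window and not binding.

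None of the 10 claudins was called in either direction by edgeR (0 lower and 0 higher). In the same test 13 genes were called lower (0.0892% of those tested) and 0 were called higher (0%). DESeq2 called none of the 10 either, against a background of 280 lower genes (1.73% of the 16155 genes to which it gave an adjusted p) and 45 higher genes (0.279%). At an unadjusted p under 0.05 in edgeR, 1 claudin was lower, Cldn5, and 0 were higher. Over all genes tested, 9.12% were lower and 3.40% were higher at that level. The fold changes of 3 claudins (Cldn1, Cldn5 and Cldn8) were below 0 and those of 7 were above 0, with a median log2 fold change of 0.18. Cldn5 was also the only claudin whose groups did not overlap, with every DSS+BV library below every DSS library. Over all genes tested, 11.3% were separated in this direction and 6.37% in the other, in which 0 claudins were separated. A permutation of 3 against 3 libraries has a smallest two-sided exact p of 0.1.

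**Figure D1:**
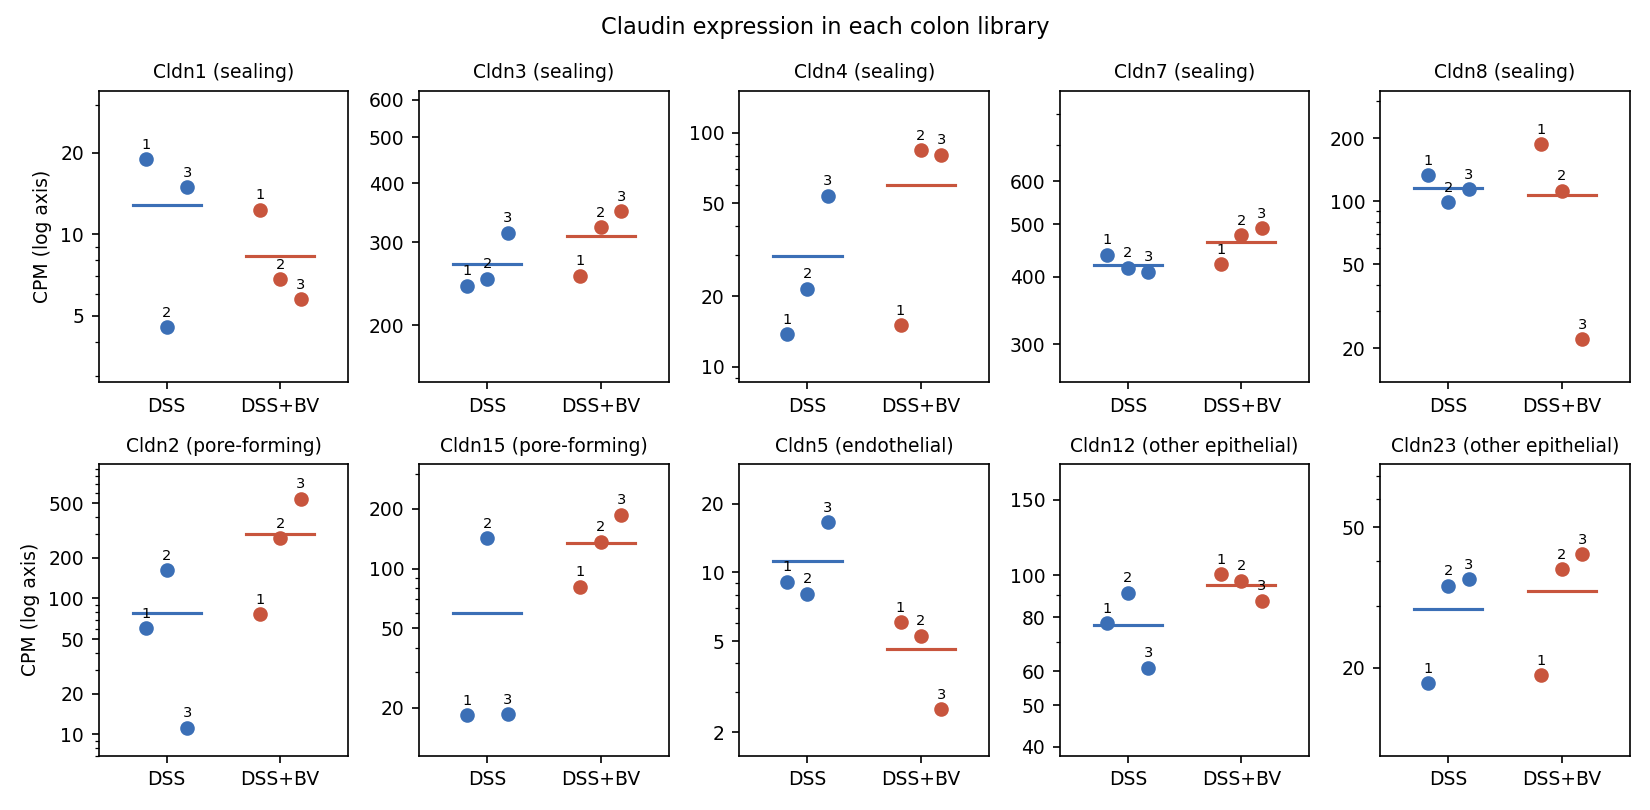
Level of each claudin (CPM, log axis) in the 3 DSS libraries (blue) and the 3 DSS+BV libraries (red), with the replicate number above each point and a line at the group mean. Only the Cldn5 groups do not overlap, and Cldn2 runs from 11.2 CPM in DSS 3 to 542 CPM in DSS+BV 3.

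Among the sealing claudins, Cldn3 and Cldn7 were the highest per length and the steadiest. Cldn3 (Entrez gene 12739, chr5:134986214-134987476 on GRCm38.p6, plus strand) is a barrier claudin found along the whole colon. It measured 243, 251 and 314 CPM in the DSS mice and 255, 322 and 349 CPM in the DSS+BV mice. The groups overlapped, and the means were 269 ± 39.0 and 309 ± 48.6 CPM (SD, n = 3 each). Its log2 fold change was 0.20 with a 95% interval from -0.24 to 0.63 (SE 0.18, edgeR adjusted p = 0.677). The annotated antisense gene Wbscr25 shares 40 exonic bases with Cldn3. Cldn7 (Entrez gene 53624, chr11:69964779-69967886, plus strand), which also lies along the lateral membrane of intestinal cells, was at 439, 416 and 408 CPM in the DSS libraries and at 421, 477 and 491 CPM in the DSS+BV libraries. The highest of the 6 values was 1.2 times the lowest, the smallest ratio among the 10 claudins. Its log2 fold change was 0.14 (95% interval -0.19 to 0.46, edgeR adjusted p = 0.700).

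Cldn4 varied more. Cldn4 (Entrez gene 12740, chr5:134945123-134946934, minus strand) is a sealing claudin that also serves, with Cldn3, as a receptor for Clostridium perfringens enterotoxin, and it lies next to Cldn3 on the chromosome. The DSS mice had 13.8, 21.6 and 53.9 CPM, and the DSS+BV mice had 15, 84.4 and 80.7 CPM. DSS+BV 2 and 3 were above all DSS libraries, but DSS+BV 1 was below DSS 2 and 3. A log2 fold change of 1.01 had a 95% interval from -0.74 to 2.76 (SE 0.73, edgeR adjusted p = 0.600). Without DSS 3 it was 1.76, and over the libraries left out in turn it was no lower than 0.66.

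Cldn1 and Cldn8 had means that were lower in the DSS+BV group, with overlapping groups. Cldn1 (Entrez gene 12737, chr16:26356645-26371839, minus strand), a sealing claudin best known from the epidermal barrier, was at 18.9, 4.54 and 15 CPM in the DSS libraries and at 12.3, 6.82 and 5.75 CPM in the DSS+BV libraries. The lowest value of all was in DSS 2. On the log2 scale the fold change was -0.63 (95% interval -1.94 to 0.69, edgeR adjusted p = 0.665), and lay between -1.01 without DSS 2 and -0.24 without DSS 1. Cldn1 is abundant in stratified epithelium. The mean log2 CPM of the 3 squamous epithelium markers that passed the filter correlated with Cldn1 at r = 0.84 over the 6 libraries. Squamous markers were low. Krt5 reached 0.124 CPM and Krt14 0.637 CPM (both chosen after their values were seen), and the 3 tested markers Krt10, Krt13 and Krt6b reached 2.21, 1.45 and 1.39 CPM. The 13 squamous markers in the table summed to between 3.5 and 6.8 CPM in the DSS group and between 2.8 and 5.6 CPM in the DSS+BV group. Cldn1 also correlated with the mean log2 CPM of the 6 distal colon Hox genes, at r = 0.83. The part of squamous epithelium or of colon position in the Cldn1 level was not tested.

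Cldn8 (Entrez gene 54420, chr16:88560826-88563183, minus strand) is a claudin of the distal colon that prevents sodium from leaking back after uptake. It was at 133, 98.8 and 114 CPM in the DSS libraries. In the DSS+BV group it was at 187, 112 and 22.0 CPM, so that the highest and the lowest of the 6 values were both in this group. On the log2 scale the fold change was -0.11 (95% interval -1.66 to 1.45, edgeR adjusted p = 0.960). It was -0.76 without DSS+BV 1, 0.38 without DSS+BV 3 and 0.30 without both DSS 2 and DSS+BV 3. The library with the lowest Cldn8, DSS+BV 3, was also the one in which Hoxb13, a second marker of the distal colon, had no read, while Hoxd10 and Hoxd11 were not low there. Hoxb13 was at 211, 36.4 and 125 CPM in the DSS group and at 248, 112 and 0 CPM in the DSS+BV group. Cldn8 and Hoxb13 correlated at r = 0.99 over the 6 libraries on log2 CPM, and Cldn8 and Hoxd13 at r = 0.87. The summed smooth muscle markers, in which DSS+BV 3 was also lowest at 2421 CPM against 3326 to 4099 CPM in the DSS group, moved with Cldn8 as well, with r = 0.92 for their mean log2 CPM. The part of colon position or of muscle in the Cldn8 level was not tested.

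The pore-forming claudins had the highest ratios of the DSS+BV to the DSS mean, and, over all 6 libraries, also the widest ratios of the highest to the lowest value. Within the DSS+BV group the ratio for Cldn15 (2.30) was smaller than those for Cldn8 (8.51) and Cldn4 (5.61). Cldn2 (Entrez gene 12738, chrX:139800808-139811386, plus strand) forms channels for sodium and water and is found mainly in the crypts. The 3 DSS mice had 60.3, 162 and 11.2 CPM, and the 3 DSS+BV mice had 76.8, 278 and 542 CPM. DSS 2 was above DSS+BV 1, and the DSS libraries alone spanned 14.5-fold. The means were 77.8 ± 76.9 and 299 ± 233 CPM (SD, n = 3 each), with a log2 fold change of 1.94 and a 95% interval from -0.48 to 4.36 (SE 1.01, edgeR adjusted p = 0.479). Across the 6 libraries the highest Cldn2 value was 48.4 times the lowest, the widest ratio of the 10 claudins. The log2 fold change of Cldn2 was 3.09 without DSS 2, 1.19 without DSS+BV 3 and 2.35 without both, and none of these passed the test.

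Cldn15 (Entrez gene 60363, chr5:136967869-136975845, plus strand) supplies the sodium conductance that nutrient uptake relies on in the small intestine. It was at 18.3, 142 and 18.5 CPM in the DSS libraries and at 80.9, 136 and 186 CPM in the DSS+BV libraries. DSS 1 and DSS 3 were lower than every DSS+BV library, and DSS 2 was above 2 of them. The log2 fold change was 1.17 with a 95% interval from -0.84 to 3.19 (SE 0.84, edgeR adjusted p = 0.599). Without DSS 2 it was 2.88 (edgeR adjusted p = 0.0973), and without both DSS 2 and DSS+BV 3 it was 2.58 (edgeR adjusted p = 0.249). DSS 2 was also the DSS library with the highest level of Cyp2c55, a cytochrome of the proximal colon, at 833 CPM against 8.32 and 64.3 CPM in DSS 1 and 3. In the DSS+BV group Cyp2c55 was at 133, 2714 and 3776 CPM. Cldn15 and Cyp2c55, a gene chosen after its values were seen, correlated at r = 0.92. The part of colon position in the Cldn15 level was not tested.

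Cldn5 (Entrez gene 12741, chr16:18776847-18778262, plus strand) was the claudin with the smallest p. It is the main claudin of vascular endothelium and the one most studied at the blood-brain barrier, and only colon tissue was measured here. Its level was 9.10, 8.08 and 16.5 CPM in the DSS mice, against 6.07, 5.29 and 2.53 CPM in the DSS+BV mice. Every DSS+BV library was below every DSS library, and the value in DSS+BV 3 rests on 40 counts, the fewest in any library among the 10 claudins. The means were 11.2 ± 4.62 and 4.63 ± 1.86 CPM (SD, n = 3 each). The log2 fold change was -1.28 with a 95% interval from -2.31 to -0.25 (SE 0.43, edgeR unadjusted p = 0.0218), but it did not pass the adjustment over all genes (edgeR adjusted p = 0.347, DESeq2 adjusted p = 0.122). By p-value Cldn5 was in place 912 of the genes tested. It stayed below 0 with each library left out in turn, between -1.51 without DSS+BV 1 and -0.89 without DSS 3.

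Other genes of blood vessels lay on the same side. All 16 blood endothelium markers had fold changes below 0, with a median log2 fold change of -0.65, against -0.01 over all genes tested. None was called by edgeR, 1 (Egfl7) was called by DESeq2, 8 were lower at an unadjusted p under 0.05 (9.12% of all genes tested), and 8 had groups that did not overlap (11.3% of all genes). Over all 14579 genes tested, 7501 had fold changes below 0. The markers summed to between 652 and 887 CPM in the DSS group and between 453 and 577 CPM in the DSS+BV group, and none was at 0. The 3 with the smallest p were Vwf, the clotting factor stored in endothelial cells (log2 fold change -0.68, edgeR adjusted p = 0.222), Egfl7, a secreted vascular protein (-1.18, edgeR adjusted p = 0.229), and Robo4, an endothelial receptor (-0.81, edgeR adjusted p = 0.270). The junction molecules Pecam1 (-0.62, edgeR adjusted p = 0.410) and Cdh5 (-0.70, edgeR adjusted p = 0.316) were not called. The 7 lymphatic endothelium markers had fold changes below 0 too, with a median of -0.88 and the smallest p in Pdpn, which DESeq2 called lower.

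The level of Cldn5 was therefore set against these markers, as the log2 CPM of Cldn5 minus the mean log2 CPM of the 16. This difference was -1.77, -1.87 and -1.37 for the DSS mice, against -2.14, -1.96 and -3.01 for the DSS+BV mice. All DSS+BV values were below all DSS values, although DSS 2 and DSS+BV 2 lay close together. The means were -1.67 ± 0.26 and -2.37 ± 0.56 (SD, n = 3 each), a difference of -0.70 on the log2 scale with p = 0.1 (exact permutation test, two-sided), which is the smallest p that 3 against 3 can give. Without DSS+BV 3 the difference was -0.38, and against Pecam1 and Cdh5 alone it was -0.58 (exact permutation p = 0.2). Over the 6 libraries Cldn5 correlated with the mean of the blood endothelium markers at r = 0.92, with that of the lymphatic markers at r = 0.97, and with Cdh5 at r = 0.95. It also correlated with the mean of 10 neutrophil markers, at r = 0.89. These values share libraries and the group difference, and they describe the 6 mice only. Beyond this difference from the markers, the part of vessel content in the Cldn5 level was not tested.

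**Figure D2:**
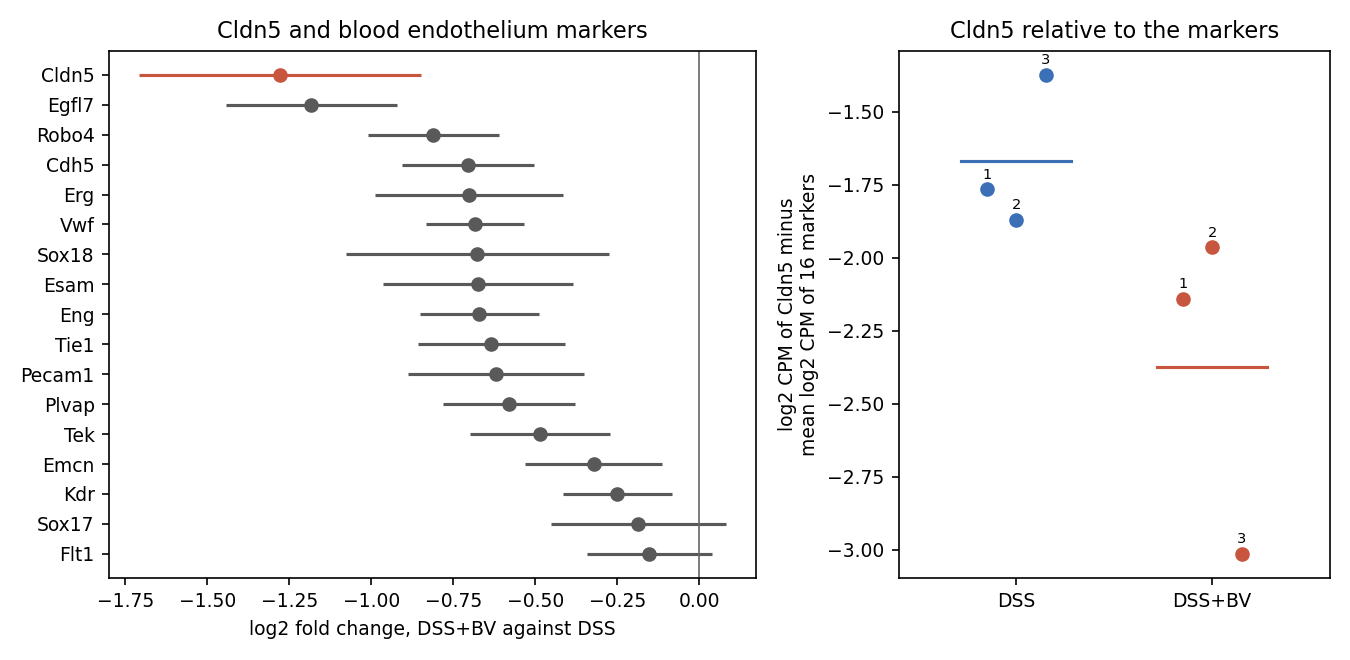
Left, log2 fold change (DSS+BV against DSS, edgeR) of Cldn5 (red) and of 16 blood endothelium markers (grey), with bars of 1 SE. Right, log2 CPM of Cldn5 minus the mean log2 CPM of the markers in each library, with the replicate number above each point and a line at the group mean. All 17 fold changes lie below 0, and the DSS+BV 3 library is lowest on the right, at -3.01.

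Cldn12 and Cldn23, the other epithelial claudins, had small fold changes. Cldn12 (Entrez gene 64945, chr5:5505015-5514976, minus strand), which lacks the usual C-terminal PDZ-binding motif and takes part in calcium passage, was at 77.6, 91.3 and 61.1 CPM in the DSS libraries and at 101, 97.3 and 87.4 CPM in the DSS+BV libraries. Only DSS 2 overlapped the DSS+BV group. The log2 fold change was 0.31 (95% interval -0.10 to 0.72, SE 0.17, edgeR adjusted p = 0.501). Cldn23 (Entrez gene 71908, chr8:35824709-35826559, minus strand), a claudin of differentiated luminal colon cells, was at 18.1, 34.2 and 35.6 CPM in the DSS libraries and at 19.1, 38.0 and 41.9 CPM in the DSS+BV libraries. In both groups 1 library, numbered 1, was well below the other two. The log2 fold change of Cldn23 was 0.17 (95% interval -0.72 to 1.06, edgeR adjusted p = 0.874), and it was -0.08 without DSS 1.

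**Figure D3:**
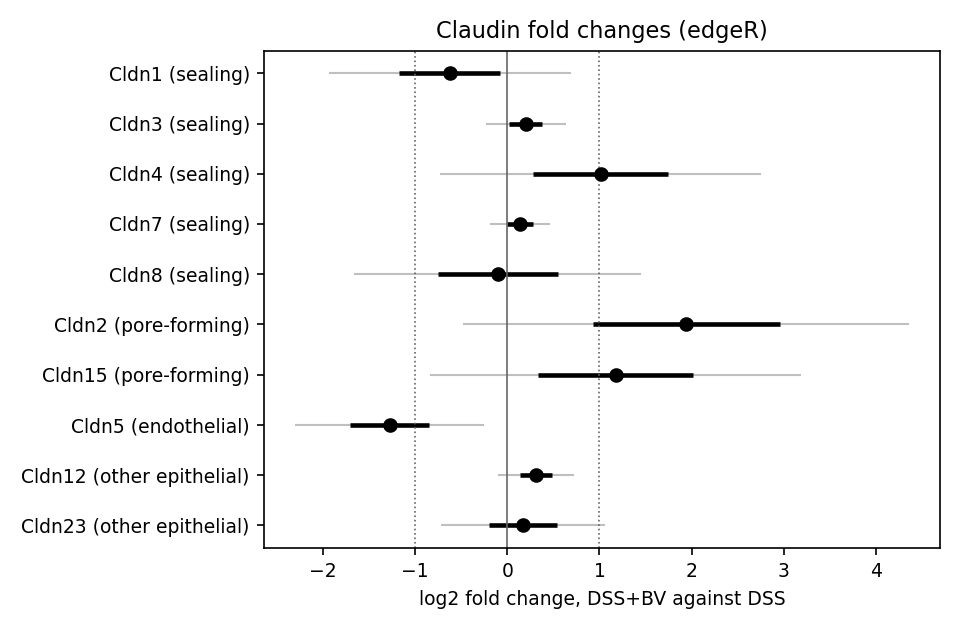
Log2 fold change of each claudin (DSS+BV against DSS, edgeR), with thick bars of 1 SE, thin bars for the 95% interval and dotted lines at the threshold of 1 in each direction. Only the interval of Cldn5 (-2.31 to -0.25) leaves out 0, and none of the 10 passed the adjusted test.

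The 14 epithelium markers all had fold changes above 0, with a median log2 fold change of 0.45, and 6 were higher at an unadjusted p under 0.05 (3.40% of all genes tested). They summed to between 13302 and 16664 CPM in the DSS group and between 21196 and 32860 CPM in the DSS+BV group, and none was at 0. None was called by edgeR, and DESeq2 called Car1, a carbonic anhydrase of colonocytes (log2 fold change 2.84, edgeR adjusted p = 0.313). Car1 was at 924 CPM in DSS+BV 1, within the DSS range of 825 to 1041 CPM, while DSS+BV 2 had 10453 CPM and DSS+BV 3 had 8702 CPM. Without Car1, the other 13 markers summed to between 12477 and 15623 CPM in the DSS group and between 16814 and 22408 CPM in the DSS+BV group. Each epithelial claudin was set against the mean log2 CPM of all 14 markers, Car1 included. The difference between groups was -0.44 for Cldn7 and -0.38 for Cldn3, both of which were above 0 before this step. For Cldn7 the values were -0.41, -0.94 and -0.91 in the DSS libraries and -1.11, -1.44 and -1.03 in the DSS+BV libraries, so that the groups did not overlap (exact permutation p = 0.1, adjusted over 9 claudins p = 0.45). Against Cdh1, Krt8 and Krt18 alone, a set without Car1, the Cldn7 difference was -0.37 with an exact permutation p of 0.3, and the groups overlapped. Without DSS 1 the Cldn7 difference was -0.27 against all markers. Leaving out Car1 alone was not tried, so the separation of Cldn7 depends on the markers used. For Cldn3 the exact permutation p was 0.2, adjusted to 0.45. The difference was -1.04 for Cldn1, -1.14 for Cldn8, -0.25 for Cldn12 and -0.42 for Cldn23, and it was 1.66 for Cldn2, 1.23 for Cldn15 and 0.31 for Cldn4. The exact permutation p of the 9 claudins lay between 0.1 and 0.9. With 3 against 3 libraries it cannot be below 0.1, so none could have passed 0.05 and these tests decide nothing. Single libraries decided much of these differences. With libraries left out in turn, that of Cldn1 ran from -1.75 without DSS 2 to -0.50 without DSS 1, and that of Cldn8 from -1.88 without DSS+BV 1 to -0.27 without DSS+BV 3. For Cldn2 it ran from 0.56 without DSS 3 to 2.46 without DSS 2, for Cldn15 from 0.68 without DSS 3 to 2.12 without DSS 2, for Cldn12 from -0.46 without DSS 3 to -0.085 without DSS 1, and for Cldn23 from -0.67 without DSS+BV 3 to -0.17 without DSS+BV 1. For Cldn4 it was -0.12 without DSS+BV 3 and 1.02 without DSS+BV 1. 

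Levels can be compared between claudins only per length, and for this CPM was divided by the kilobases of merged exons of each gene in GENCODE M21. The order of the means over the 6 libraries was Cldn3 (229 CPM per kilobase), Cldn7 (227), Cldn2 (56.6), Cldn8 (47.2), Cldn15 (45.7), Cldn4 (24.7), Cldn12 (20.3), Cldn23 (16.8), Cldn5 (5.60) and Cldn1 (2.18). The lowest library of Cldn3 and of Cldn7 was above the highest library of Cldn2, and every other pair of neighbours in this order overlapped over the 6 libraries. The order differed between the groups. In the DSS group it began with Cldn7 (216), Cldn3 (214), Cldn8 (49.0), Cldn15 (28.1) and Cldn2 (23.4), and in the DSS+BV group with Cldn3 (245), Cldn7 (238), Cldn2 (89.9), Cldn15 (63.3) and Cldn8 (45.5 CPM per kilobase). With the longest transcript in place of merged exons, Cldn7 came first at 331 CPM per kilobase and Cldn15 moved ahead of Cldn8.

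As shares of the summed claudin CPM per kilobase, Cldn2 and Cldn15 together made up 4.89%, 18.4% and 2.02% in the DSS mice and 10.1%, 18.7% and 28.5% in the DSS+BV mice. DSS 2 was close to DSS+BV 2, and the other DSS libraries were lower than all DSS+BV libraries. The mean shares were 8.43% ± 8.74 and 19.1% ± 9.22 (SD, n = 3 each). The 5 sealing claudins (Cldn1, Cldn3, Cldn4, Cldn7 and Cldn8) made up 88.8%, 74.3% and 90.4% in the DSS libraries and 83.6%, 75.3% and 66.4% in the DSS+BV libraries. The sum of the sealing claudins was 486, 468 and 540 CPM per kilobase in the DSS libraries. In the DSS+BV libraries it was 509, 596 and 584 CPM per kilobase. DSS+BV 2 and 3 had a lower share than DSS 1 and 3 but a higher sum. DSS 2 had a low share and also the lowest sum. These shares are descriptive, and the groups overlapped in both.

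**Figure D4:**
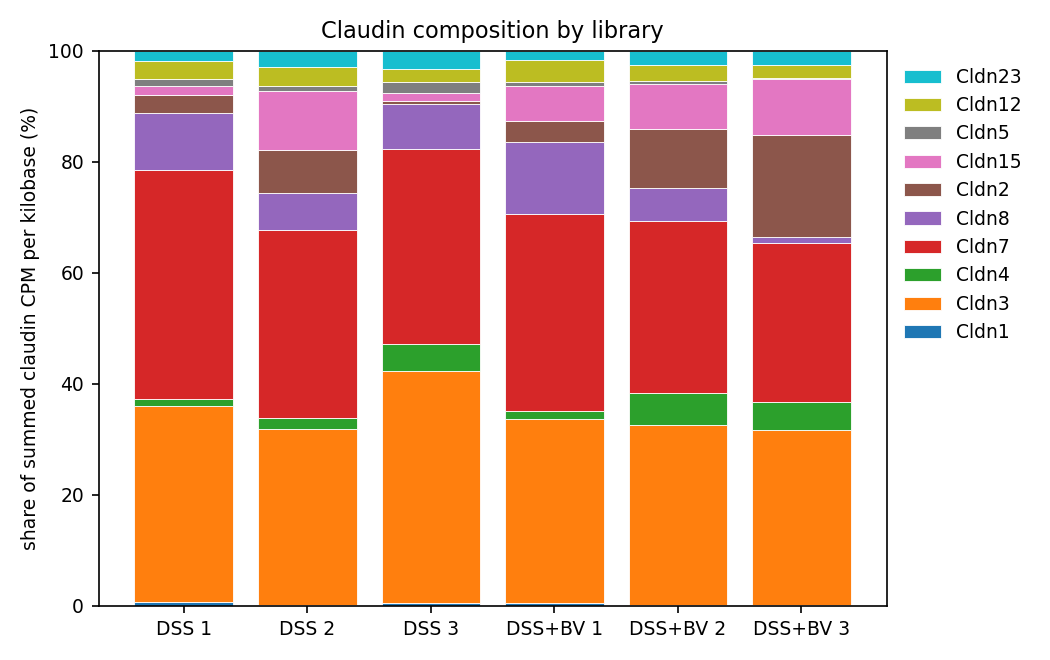
Share of each claudin in the summed claudin CPM per kilobase (%, linear axis from 0 to 100) in each library. Cldn3 and Cldn7 fill most of every bar, and Cldn2 with Cldn15 fill 28.5% of DSS+BV 3 against 2.02% of DSS 3.

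The 10 claudins did not vary as a block. Over the 6 libraries, Cldn3, Cldn4 and Cldn23 varied together, with r = 0.97 for Cldn3 and Cldn4, 0.88 for Cldn4 and Cldn23, and 0.81 for Cldn3 and Cldn23 on log2 CPM. Cldn2 and Cldn15 correlated at r = 0.88, and Cldn12 with Cldn15 at r = 0.78. The sealing claudin Cldn7 correlated with Cldn2 at r = 0.80. The strongest opposite pairs were Cldn2 with Cldn5 (r = -0.92) and Cldn1 with Cldn15 (r = -0.91). All of these share 6 libraries of which 3 belong to each group, and so are descriptions without a test.

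**Figure D5:**
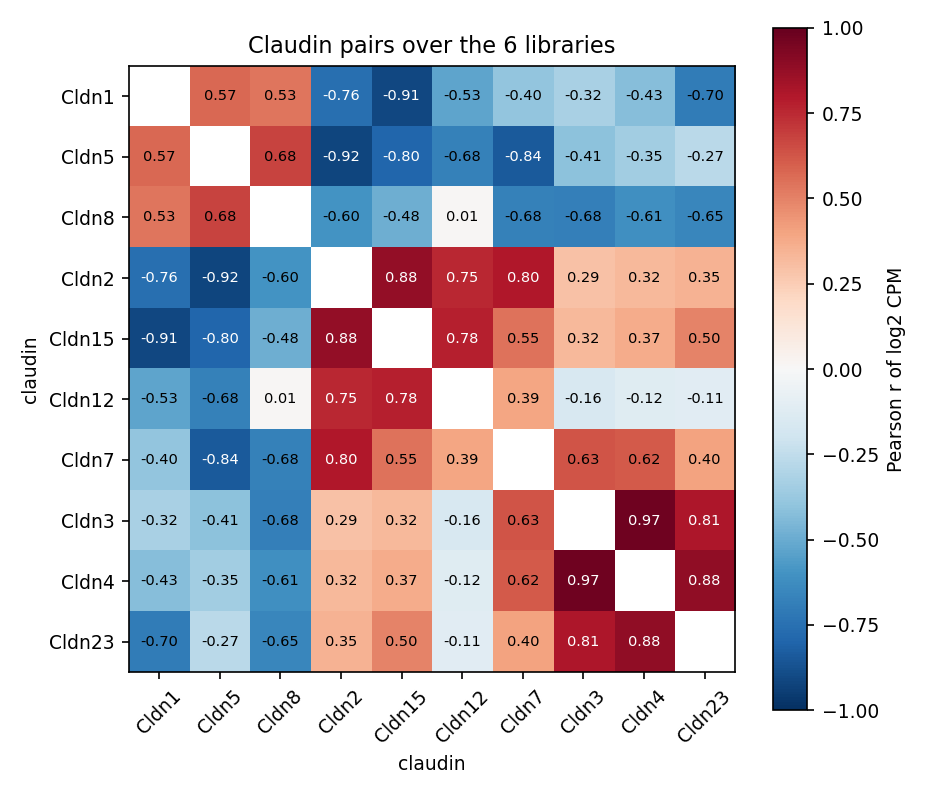
Pearson r of log2 CPM over the 6 libraries for each pair of claudins (colour and number, from -1 in blue to 1 in red). Cldn3, Cldn4 and Cldn23 form the red corner with r from 0.81 to 0.97, and Cldn5 is opposite to Cldn2 at -0.92.

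The genes most like each claudin other than Cldn23 were taken from 11940 tested genes with a mean of at least 5 CPM, by r over the same 6 libraries. For Cldn2 they were Tlcd1, Tjp3 and Zfp827 (r = 0.99 each), of which Tjp3 encodes the tight junction scaffold ZO-3. For Cldn15 they were Txlng, Slc25a35 and Cbs, each with r above 0.99. For Cldn5 they were Gypc, Htra3 and Crispld2, for Cldn8 Cwc25, Nrap and Vsig1, and for Cldn1 Limk1, Zc3h3 and Septin9, all with r of about 0.99. For Cldn3 they were Fam241a, Rnf128 and Cdhr5, a protocadherin of the brush border (r = 0.98 for Cdhr5). For Cldn4 they were Sdcbp2, Srxn1 and Tmcc3, for Cldn7 Zfyve19, Mrps23 and Faap100, and for Cldn12 Slx4ip, Rbm25 and Sos1. Each of these claudins had a gene with r of 0.98 or more among so many genes, over 6 points.

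Of 27 proteins that sit with claudins at the junction, 26 genes were tested. None was called, 3 were lower and 0 were higher at an unadjusted p under 0.05, and the median log2 fold change was 0.12. The share of lower genes was close to the 9.12% of all genes tested. By the naming rule these 3 are Jam3, an adhesion molecule of endothelium and epithelium (log2 fold change -0.89, edgeR adjusted p = 0.328), Mpdz, a scaffold with many PDZ domains (-0.58, edgeR adjusted p = 0.358), and Ildr2, a protein related to the angulins of tricellular contacts (-1.28, edgeR adjusted p = 0.383). Of 9 stabilizers, proteases and kinases that act on claudins, 8 were tested and none was called. At an unadjusted p under 0.05 in edgeR, 0 were lower and 1 was higher, against 9.12% and 3.40% of all genes tested. The smallest p was that of Lnx1, a ubiquitin ligase that binds claudins and leads to their removal from the junction (log2 fold change 0.61, edgeR adjusted p = 0.313). It was at 14.1, 17 and 14.4 CPM in the DSS libraries and at 20.6, 22.9 and 26.1 CPM in the DSS+BV libraries. The groups did not overlap, as for 6.37% of all genes tested in this direction.

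Of 17 transcription factors known to act on claudin genes, 16 were tested, of which Erg and Sox18 are also among the blood endothelium markers. None was called by edgeR, 4 were lower and 1 was higher at an unadjusted p under 0.05, and the median log2 fold change was 0.15. At that level 9.12% of all genes tested were lower and 3.40% were higher. Erg was among the 4 lower factors. Snai1, a repressor of claudin genes, was at 9.46, 6.28 and 9.43 CPM in the DSS libraries and at 3.30, 3.25 and 4.05 CPM in the DSS+BV libraries. Its log2 fold change was -1.25 (edgeR adjusted p = 0.218), and DESeq2 called it lower. The related repressor Snai2 had a log2 fold change of -1.09 (edgeR adjusted p = 0.313). Hnf4a, a factor of intestinal differentiation, had a log2 fold change of 0.64 (edgeR adjusted p = 0.329). Cdx2, a factor of intestinal identity that was picked with its values in view, measured 42.2, 176 and 39.9 CPM in the DSS mice and 60.5, 192 and 327 CPM in the DSS+BV mice, and correlated with Cldn2 at r = 0.91 and with Cldn15 at r = 0.92. Like Cldn15, it was high in DSS 2. Its log2 fold change was 1.16 (edgeR adjusted p = 0.572). The window of Cldn2 shown above held no TTTATNG on either strand, and neither did that of Cldn15. A search of 250 bases for these 7 letters alone cannot show whether CDX factors bind. The part of Cdx2 in the Cldn2 and Cldn15 levels was not tested.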

How the data were processed

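RNA from colon tissue of 3 DSS and 3 DSS+BV mice was sequenced as 1 library per mouse. The authors deposited expected counts per gene from RSEM 1.2.8, unscaled, and the submitters' processing notes also name HISAT2 2.1.0, Bowtie2 2.2.5 and GRCm38.p6. The 60 claudin values were whole numbers (tolerance 1e-06). Counts were rounded and filtered with filterByExpr (minimum count 10, minimum total 15), and TMM factors, edgeR 4.0.16 in R 4.3.3 and Benjamini-Hochberg adjustment were used, with log2 CPM at a prior count of 2. The biological coefficient of variation was 32.1%. Levels relative to cell markers were compared with exact permutation tests.

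The members and gene lists were chosen with earlier results of these data known. Named genes are the 10 claudins, other tested claudins, the called genes and up to 3 genes with the smallest p of each other list, the 3 genes most like each claudin (those of Cldn23 are not reported here), Pecam1, Cdh5, Hoxb13 and Hoxd13. Other genes were named after their values were seen or as parts of a marker set.

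Gene positions and promoters are from RefSeq, and strands, exon lengths and exon overlaps are from GENCODE M21. Alternatives were DESeq2 1.42.0, other factors, filters, prior counts and marker sets, the replicate number as a block, and libraries left out. Figures were drawn with matplotlib 3.10.9. No protein sequence table was used, so proteins were not compared. Each interval gives the uncertainty of a log2 fold change, from its SE in the edgeR fit to these mice at the depth given. It is not the spread of single mice.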

Additional observations from a re-analysis of the deposited data

How the results depend on the processing

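No claudin was called under any of the 14 alternatives run for each, and the lowest adjusted p was 0.0973, for Cldn15 without DSS 2. The direction turned only for Cldn8, which was -0.76 to 0.38 with libraries left out in turn and 0.30 without both DSS 2 and DSS+BV 3, and for Cldn23, which was -0.080 to 0.46. The difference of Cldn4 from the epithelium markers was -0.12 to 1.02 with libraries left out. edgeR called 13 lower and 0 higher genes, 6 of them on the lists. DESeq2 called 280 lower, 45 higher and 14 on the lists. With libraries left out in turn, edgeR called 0 to 3 lower, 0 to 4 higher and 0 to 4 listed genes, and without both DSS 2 and DSS+BV 3, an alternative added after seeing the data, it called 0 lower and 0 listed. With the replicate number as a block it called 0 lower and 0 listed genes. Same-numbered libraries deviated together at r = 0.27, 0.25 and -0.30, so the numbers were not taken as pairs. With 3 mice per group, the absence of a call does not show that a claudin was unchanged.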

Other observations

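Of the rest of the claudin family, most genes present in the table were at low counts in these colons. Of 25 further claudin genes listed, 14 were in the table and 2 passed the filter. Cldn14, a cation-barrier claudin of kidney and inner ear, had 100, 17 and 94 counts in the DSS mice and 45, 37 and 11 counts in the DSS+BV mice (log2 fold change -1.06, edgeR adjusted p = 0.595). Its lowest values, in DSS 2 and DSS+BV 3, were in the libraries with the least Hoxd13. Cldn34c1 had a log2 fold change of -0.07 (edgeR adjusted p = 0.948). The other 12 had at most 11 counts in any library.

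Neutrophil markers gave the called genes among the lists. Of 10 tested, 6 were called lower by edgeR (S100a8, S100a9, Cxcr2, Retnlg, Mmp8 and Mmp9), and the median log2 fold change of the 10 was -3.04. Among all genes tested edgeR called 0.0892% lower. With libraries left out in turn, it called only 0 to 4 of the listed genes. S100a8, a calprotectin subunit, was at 46.3, 30.4 and 39.1 CPM in the DSS group and at 1.85, 1.47 and 2.09 CPM in the DSS+BV group. The mean log2 CPM of these markers correlated with that of Cldn5 at r = 0.89 over the 6 libraries. Of 8 crypt base markers 7 were tested. Their mean log2 CPM correlated with Cldn2 at r = 0.90 and more strongly with Cldn7, at r = 0.94, so this was not particular to Cldn2. The fold changes of the tested crypt base markers were above 0 for 6 and below 0 for 1, with a median log2 fold change of 0.32. None was called by edgeR. Named after their values were seen, the dividing cell markers Mki67 (0.09) and Top2a (0.10) were near 0, Smoc2 had a log2 fold change of -0.56, and Olfm4, which did not pass the filter, reached 0.62 CPM among the DSS mice but no more than 0.13 CPM with B. vulgatus. Lgr5, the stem cell marker, was at 0.24, 0.62 and 0.35 CPM in the DSS group and at 0.46, 6.75 and 5.37 CPM in the DSS+BV group (log2 fold change 3.36, edgeR adjusted p = 0.318), and DESeq2 called it higher.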
